A study of Mus musculus with 4 samples.

Results

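Early crypt goblet cells are mucus-lineage cells of the intestinal crypt that carry the goblet secretory program with little mucus mRNA. Here they are 922 cell barcodes of 32872 kept, from 44576 deposited, in single-cell RNA sequencing of mouse small intestine. A barcode was kept with at least 1000 UMIs (unique molecular identifiers, each standing for 1 captured mRNA molecule), at least 500 genes and under 30% mitochondrial UMIs. It was taken as a member when it had at least 1 UMI of at least 4 of 7 genes (Rep15, Klk1, Tpsg1, Creb3l1, Slc12a8, Ccl9, Bace2) and under 2 UMIs of Dll1. Its summed Muc2, Fcgbp, Clca1 and Zg16 (the mucus sum) had to lie under 100 per 10000 UMIs, and its alpha-defensin and Lyz1 UMIs under 20% of its total. The members were thus chosen by these measured values, so the levels of those genes, and every contrast of members with other barcodes, are a description with no test.

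Both genotypes were sampled at 25 weeks of age, in 2 libraries from mutant mice that carry G5081A in TrnA (a mitochondrial gene whose product is a tRNA for alanine) and 2 from wild type mice. The labelled load of mutated mitochondrial DNA is 77% for mutant 1 and 81% for mutant 2, the rest being unmutated. Set A here means mutant 1 and wild type 1, whose titles name no sex, and set B means mutant 2 and wild type 2, whose titles say male. Cells were sorted before capture using CD326, an epithelial marker, together with TER-119, CD45, CD31 and DAPI. Pooling of animals, and whether each library is a separate animal, are not in the labels, and p-values therefore reflect spread between libraries that may be technical.

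Goblet cells arise in the crypt from a secretory precursor that has escaped Notch signalling and turned on the transcription factor ATOH1. SPDEF, FOXA3 and the CREB3-family factors then build a large endoplasmic reticulum in which the protein disulfide isomerase AGR2 takes part in folding of the mucin MUC2. On the way up the crypt the cell stops dividing, fills with mucin granules and releases MUC2 together with packaging and lectin proteins such as FCGBP, CLCA1, TFF3 and ZG16. Atoh1 and other basic helix-loop-helix factors bind E-boxes, short DNA motifs of the form CANNTG.

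Promoter sequence is shown for 3 marker genes to place those motifs beside the levels that follow. Each is the 250 bases before the RefSeq transcription start on build GRCm38.p6, 5′ to 3′ on the plus strand, which is the strand of all 3 genes. Capitals mark the E-boxes CAGCTG and CAGATG, searched on both strands (CAGATG reads CATCTG from the other strand). The windows are chr12:35992675-35992924 for Agr2, chr4:119637482-119637731 for Guca2a (the peptide hormone guanylin) and chr7:44225110-44225359 for Klk1 (a kallikrein protease).
Agr2: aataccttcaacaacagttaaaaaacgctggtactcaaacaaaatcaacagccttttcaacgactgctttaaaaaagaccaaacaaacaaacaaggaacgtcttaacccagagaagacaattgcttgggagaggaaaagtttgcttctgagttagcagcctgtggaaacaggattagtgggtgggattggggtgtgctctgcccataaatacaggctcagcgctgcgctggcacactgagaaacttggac
Guca2a: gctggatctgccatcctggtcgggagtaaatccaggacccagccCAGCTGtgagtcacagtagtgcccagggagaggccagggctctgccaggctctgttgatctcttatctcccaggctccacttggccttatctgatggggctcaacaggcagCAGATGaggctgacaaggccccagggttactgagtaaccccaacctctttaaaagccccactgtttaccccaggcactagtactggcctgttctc
Klk1: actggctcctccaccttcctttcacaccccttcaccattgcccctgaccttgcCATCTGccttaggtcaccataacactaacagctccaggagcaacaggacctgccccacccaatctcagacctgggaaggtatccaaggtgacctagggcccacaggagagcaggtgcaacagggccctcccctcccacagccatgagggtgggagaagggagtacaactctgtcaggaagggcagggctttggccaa
Agr2 held neither motif in this window, Guca2a held 1 of each and Klk1 held 1 CAGATG on the other strand. Of 25 genes looked up (the given markers and the leading genes described below), 21 had a window in the RefSeq table. CAGCTG was in 5 of the 21 windows and in 13% of all 32851 windows, CAGATG was in 6 of 21 and in 14.4%, and either was in 9 of 21 and in 25.5%. A match is a description of the letters and not a binding site.

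Members numbered 417 in mutant 1, 228 in mutant 2, 96 in wild type 1 and 181 in wild type 2. Their median depth was 11437, 16291, 25665.5 and 16280 UMIs in that order of libraries, against 9861, 11030, 21250 and 11236 over all kept barcodes. Their UMIs summed to 6274447, 4555979, 3050585 and 3508352. Wild type 1 therefore had the fewest, deepest members. No member's barcode was shared between libraries, among 217 barcodes shared over all pairs of libraries. A doublet score (scrublet) called 32.6%, 20.6%, 12.5% and 24.3% of members against 9.99%, 7.16%, 4.02% and 6.92% of kept barcodes, and those members stay in the values below unless said. The number called in a library was set in advance from its count of kept barcodes. These rates therefore compare members with kept barcodes within a library, and not libraries with each other.

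Goblet barcodes that met the same rule except for a mucus sum of 100 or more, 824 in mutant 1, 492 in mutant 2, 368 in wild type 1 and 527 in wild type 2, serve as the nearest comparison and are called high-mucus. Barcodes with 2 or more Dll1 UMIs form a class of their own, and the rest of the kept barcodes are called remaining. Levels are in CPM, the UMIs of a gene summed over a class in a library and scaled to a common total, and sums over a list include any gene of the rule in it.

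The label fitted most members. Agr2 stood at 8319 CPM in mutant 1, 9995 in mutant 2, 8405 in wild type 1 and 9266 in wild type 2, against 262 to 362 in remaining barcodes. Spink4, a Kazal-type protease inhibitor of goblet cells, stood at 6286, 7788, 5583 and 7219 CPM in the same order, against 540 to 1614 in remaining barcodes. Guca2a stood at 1652, 2159, 2000 and 2048 CPM, against 170 to 281. All 3 markers lay in a narrow range over the 4 libraries and several-fold above the remaining barcodes in each of them. They were still higher in high-mucus barcodes, with Agr2 at 13851 to 19387 CPM, Spink4 at 8601 to 14909 and Guca2a at 2966 to 5426. With Rep15, Klk1 and Tpsg1 of the rule added, the 6 given markers summed to 16650, 20438, 16366 and 18972 CPM in members. In barcodes with 2 or more Dll1 UMIs these 6 summed to 18351, 21934, 26788 and 22288 CPM, higher than in members in each library.

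A minority of members lacked the program. Agr2 was under 500 CPM in 19 members of mutant 1 (4.56%), 14 of mutant 2 (6.14%), 30 of wild type 1 (31.2%) and 24 of wild type 2 (13.3%), which made 87 of 922 (9.44%). In remaining barcodes 79.0% to 89.4% lay under that level, and in high-mucus barcodes 0.813% to 4.89%. The mucus sum was under 10 per 10000 in 89 members, and 61 of these were also Agr2-low. Wild type 1 held the largest share of such barcodes, so results on summed UMIs are also given for members with a mucus sum of at least 10.

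Among the 7 detection genes, Ccl9, a chemokine, was the only one found more often in members than in high-mucus barcodes in all 4 libraries by over 20 percentage points. It had a UMI in 83.5%, 77.2%, 74.0% and 72.9% of members (mutant 1, mutant 2, wild type 1, wild type 2), in 47.3%, 53.7%, 33.2% and 45.0% of high-mucus barcodes and in 5.83% to 7.15% of remaining ones. Its level was 471, 261, 429 and 205 CPM in members against 134 to 190 CPM in high-mucus barcodes. Rep15, which takes part in endosomal recycling, went the other way, with a UMI in 54.0%, 67.5%, 64.6% and 68.0% of members and 74.6%, 87.4%, 72.8% and 86.5% of high-mucus barcodes. Slc12a8, a solute carrier, was present in 96.1% to 100% of members and Creb3l1, a membrane-bound transcription factor, in 94.0% to 96.9%. Creb3l1 had 251, 283, 230 and 280 CPM in members and 243 to 279 CPM in high-mucus barcodes, and the ranges of the classes overlapped.

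At the threshold on detected genes, members with 4 of 7 (90, 37, 36 and 43 barcodes in mutant 1, mutant 2, wild type 1 and wild type 2) had Agr2 at 4182, 3695, 822 and 3075 CPM. Barcodes just outside with 3 of 7 (171, 120, 167 and 166) had 755, 668, 157 and 564 CPM. At the threshold on mucus, Agr2 was 11859, 16641, 18227 and 14690 CPM between 80 and 100 per 10000, against 12565, 20879, 15053 and 14342 between 100 and 120. The limit of 4 genes therefore sat where Agr2 changed steeply, whereas the mucus limit cut through a continuous range.

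The 4 mucus genes, which the rule holds low, were the main difference from high-mucus barcodes. Zg16, a lectin of the mucus layer, had 1057, 604, 530 and 850 CPM in members and 40008, 48514, 90012 and 63385 CPM in high-mucus barcodes. Muc2, the gel-forming mucin, had 1462, 1819, 1105 and 1549 CPM, against 8283, 11375, 15929 and 12571. Of genes that the rule did not use, Tff3, the trefoil peptide secreted with mucin, had 6760, 6478, 4794 and 7135 CPM in members and 25994 to 38389 CPM in high-mucus barcodes. Genes of granule release were lower as well. Fer1l6, a ferlin, had 36.4 to 53.6 CPM in members against 363 to 894, and Sytl2, which tethers granules to the membrane, had 115 to 146 CPM against 350 to 714. The 23 granule and exocytosis genes summed to 1232, 1289, 1293 and 1257 CPM in members and to 2368 to 3634 CPM in high-mucus barcodes.

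The folding machinery was much nearer to its level in high-mucus barcodes. The 34 genes of endoplasmic reticulum folding and secretion summed to 19016, 21852, 19186 and 20100 CPM in members, against 25644 to 34027 CPM in high-mucus and 5496 to 6030 CPM in remaining barcodes. Barcodes with 2 or more Dll1 UMIs had 21745, 24679, 30343 and 23201 CPM, above members in each library. The regulators were placed likewise. The 15 goblet regulators summed to 2194, 1971, 1995 and 1889 CPM in members, 2251 to 3028 CPM in high-mucus barcodes and 840 to 1137 CPM in remaining ones. With 2 or more Dll1 UMIs the sums were 2412, 2203, 2781 and 2219 CPM, again above members in each library. Atoh1 had 215, 173, 144 and 179 CPM in members and 213 to 264 CPM in high-mucus barcodes, and Spdef had 69.0 to 82.9 CPM against 96.6 to 152. Klf4, a factor of terminal goblet differentiation, had 178 to 195 CPM in members and 357 to 586 CPM in high-mucus barcodes. Sox9, a crypt-base factor, stood the other way round with 98.3 to 118 CPM in members and 43.9 to 68.8 CPM in high-mucus barcodes.

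As summed lists, stem cell and cell cycle genes were higher in members than in high-mucus barcodes in every library. Olfm4, a stem cell zone glycoprotein, had 1359, 689, 1266 and 1271 CPM in members, 281 to 638 CPM in high-mucus barcodes and 1883 to 2876 CPM in remaining ones. Mki67, a proliferation marker, had 96.7, 167, 123 and 162 CPM in members and 22.9 to 58.2 CPM in high-mucus barcodes, with 94.8 to 112 CPM in remaining ones. The 28 genes of G2 and M phase summed to 2255, 2413, 2168 and 2085 CPM in members against 462 to 1181 CPM in high-mucus barcodes, and the 21 genes of S phase to 1062 to 1345 CPM against 372 to 569. Members thus held cell cycle mRNA at about the level of the remaining barcodes, at 1614 to 2439 CPM for G2 and M phase. Barcodes with 2 or more Dll1 UMIs had 2253, 2050, 1825 and 2603 CPM for G2 and M phase, higher than members in wild type 2 only. Over 22 stem cell genes those barcodes had 3267, 2833, 2703 and 2685 CPM, against 3066, 2418, 3085 and 3347 CPM in members. That was higher than members in both mutants and lower in both wild types. Markers of Paneth cells, the defensin cells of the crypt base, summed to 12851, 17794, 12384 and 11176 CPM over 8 genes in members. In high-mucus barcodes they summed to 8394, 9142, 4518 and 11447 CPM, higher than in members in wild type 2 only. The remaining barcodes had 32800 to 96983 CPM, and the rule itself limits this sum in members and high-mucus barcodes. Mmp7, the protease that processes defensins and one of those 8, had 703, 918, 978 and 572 CPM in members, 331 to 580 CPM in high-mucus barcodes and 119 to 311 CPM in remaining ones.

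**Figure D1:**
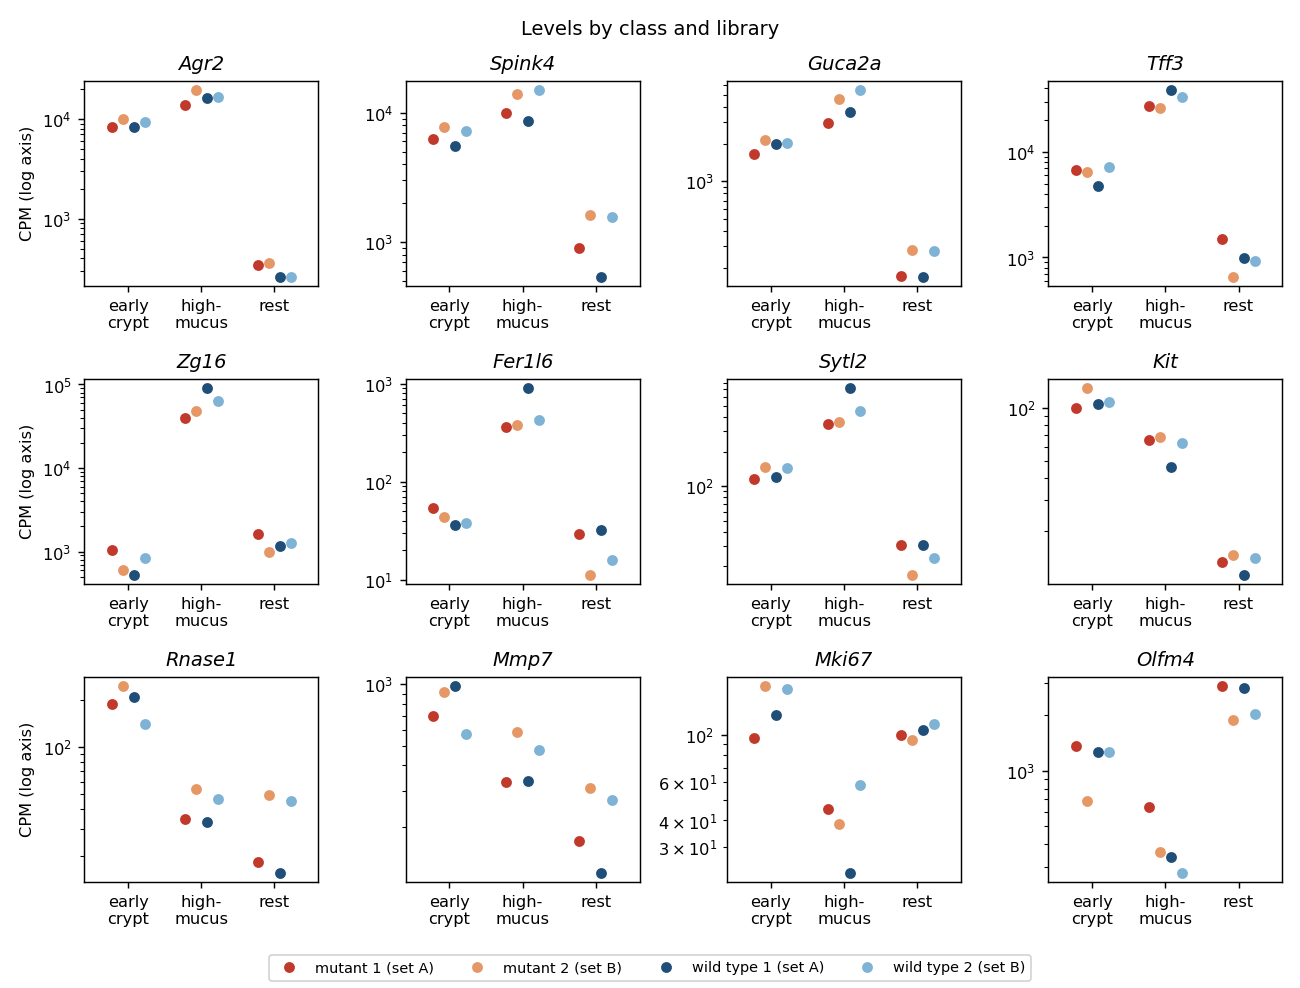
Level of 12 genes in CPM (log axis) in early crypt, high-mucus and remaining kept barcodes, with 1 point for each of the 4 libraries. Zg16, Tff3, Fer1l6 and Sytl2 sit lower in early crypt than in high-mucus barcodes in every library, whereas Kit, Rnase1, Mki67 and Olfm4 sit higher.

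The leading genes outside the rule, by the lowest log2 ratio to all other kept barcodes over the 4 libraries, were Kit, Arhgap24, Hpd and Rnase1. Kit, a receptor tyrosine kinase known from deep crypt secretory cells, had 99.9 CPM in mutant 1, 129 in mutant 2, 105 in wild type 1 and 109 in wild type 2, against 46.4 to 68.5 CPM in high-mucus and 11.3 to 14.6 CPM in remaining barcodes. Rnase1, a secreted ribonuclease, had 189, 244, 208 and 140 CPM in members, 33.2 to 53.5 CPM in high-mucus and 15.7 to 49.5 CPM in remaining barcodes. In barcodes with 2 or more Dll1 UMIs Kit had 103, 118, 96.5 and 137 CPM, lower than in members in mutant 2 and wild type 1 and higher in mutant 1 and wild type 2, while Rnase1 had 68.2, 135, 81.5 and 83.5 CPM, lower in each library. The ribonuclease genes Rnase4 and Ang were also among the 20 leading genes, at 121 to 272 CPM and 136 to 202 CPM in members. Pdia5, Fkbp11, Selenom, Qsox1 and Creb3l4 represent folding and the endoplasmic reticulum in that list, and Pdia5 had 169 to 220 CPM in members against 16.4 to 18.7 CPM in remaining barcodes. Of the 20, 9 were lower and 5 were higher in high-mucus barcodes than in members in all 4 libraries.

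Guanylin peptides split between the classes. Guca2a was lower in members than in high-mucus barcodes, as given above, whereas Guca2b (uroguanylin) had 357, 288, 331 and 288 CPM in members and 147 to 226 CPM in high-mucus barcodes. Their receptor Gucy2c had 115 to 141 CPM in members and 115 to 129 CPM in high-mucus barcodes. Cftr, the chloride channel, had 134, 105, 175 and 180 CPM in members, 36.9 to 84.4 CPM in high-mucus and 159 to 272 CPM in remaining barcodes.

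Within the class the goblet program moved with the mucus sum. From the lowest range (under 10 per 10000) to the highest (75 to 100), Agr2 stood at 1701 and 11284 CPM in mutant 1, 1091 and 17956 in mutant 2, 243 and 17676 in wild type 1, and 234 and 15600 in wild type 2. Tff3 reached 10480, 10562, 10447 and 10319 CPM in the highest range (mutant 1, mutant 2, wild type 1, wild type 2), nearly the same value in all 4 libraries. Atoh1 was at 81.3 and 54.5 CPM in the lowest range of the mutants and at 7.78 and 9.84 CPM in that of the wild types, and at 193 to 251 CPM in the highest. The members of the lowest range thus had little Atoh1 in either wild type library. Olfm4 did not follow, with 2118, 1275, 2549 and 3021 CPM in the lowest range 763, 308, 94.8 and 780 CPM between 50 and 75, and 1433, 494, 1087 and 924 CPM in the highest range. It was thus lower between 50 and 75 than in the ranges at either end in every library. The highest range of wild type 1 held 7 barcodes and its lowest 27, and the lowest range held 19 to 27 barcodes in each library. Mucus sum is part of the rule, so these ranges describe the class and are not tested.

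**Figure D2:**
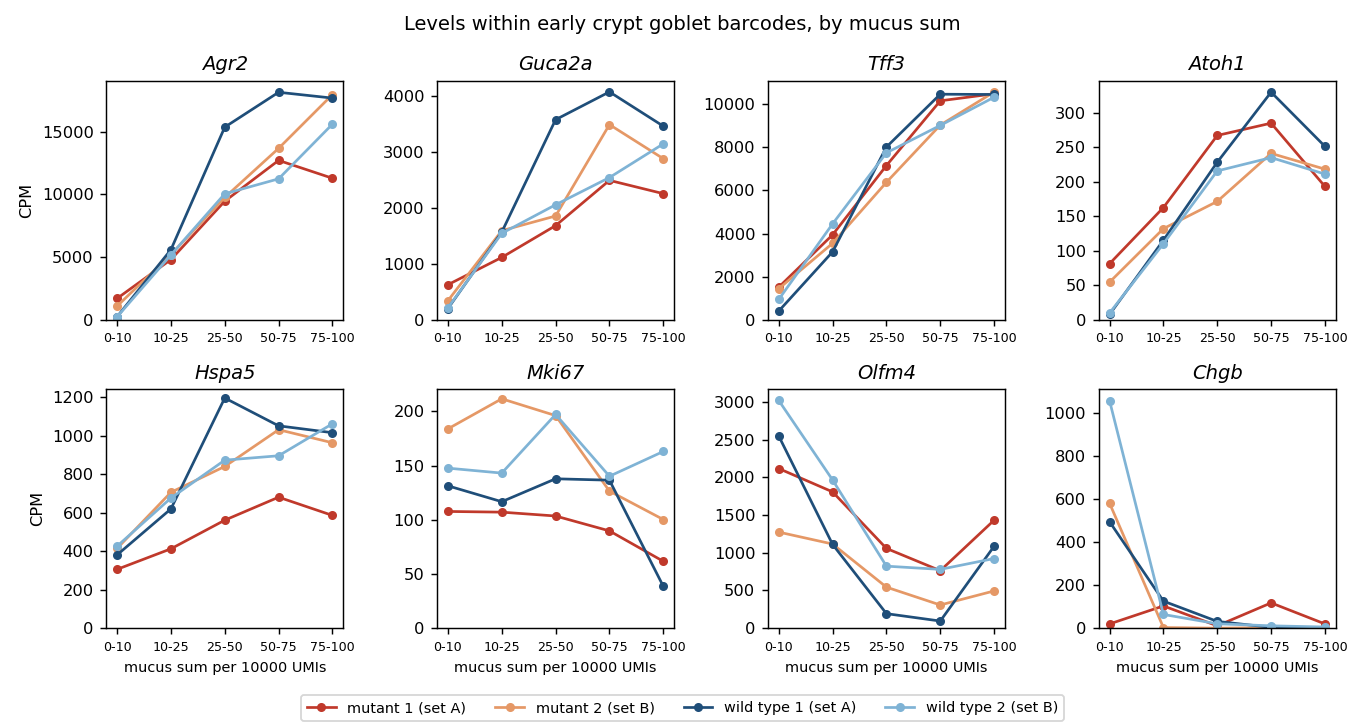
Level of 8 genes in CPM (vertical axis) within early crypt goblet barcodes, in 5 ranges of the mucus sum per 10000 UMIs (horizontal axis), with 1 line for each library. Agr2, Guca2a and Tff3 are lowest under 10 per 10000 in all 4 libraries, and Chgb is highest there in mutant 2 and in both wild type libraries.

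The first question of the design is whether the mutation changes how many of these cells the tissue holds. Members made up 3.63% of kept barcodes in mutant 1 (exact 95% binomial interval 3.29% to 3.98%) and 2.64% in mutant 2 (2.31% to 2.997%). They made up 2.12% in wild type 1 (1.72% to 2.58%) and 2.21% in wild type 2 (1.90% to 2.55%). The means were 3.13% (SD 0.699, n = 2) for mutants and 2.16% (SD 0.0654, n = 2) for wild types, and both mutants were above both wild types. By exact permutation of the libraries (two-sided) p was 0.333, the smallest value that 2 against 2 libraries can give. The difference was 1.51 percentage points within set A and 0.426 within set B.

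The rule counts genes with a UMI, and depth differed between the libraries. When every kept barcode of at least 5000 UMIs was thinned to 5000, the share was 4.72% in mutant 1, 3.42% in mutant 2, 4.90% in wild type 1 and 3.14% in wild type 2. The groups then overlapped, with means of 4.07% (SD 0.922) for mutants and 4.02% (SD 1.24) for wild types (n = 2 each, exact two-sided permutation p = 1). Thinning left out 3009, 2444, 1125 and 2430 kept barcodes of under 5000 UMIs, 22, 6, 3 and 2 of them members. Thinning also loosened the limit on Dll1, since barcodes with 2 or more Dll1 UMIs numbered 370, 93, 139 and 136 after it and 1035, 338, 652 and 497 before it, while members numbered 401, 212, 167 and 181. With at least 3 of the 7 genes in place of 4 the difference was -0.452 percentage points, lower in mutants. The direction of the difference in share therefore changed with the setting.

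Taken over goblet barcodes alone, early crypt members were 33.6% of early crypt plus high-mucus barcodes in mutant 1 (417 of 1241, 95% interval 31.0% to 36.3%) and 31.7% in mutant 2 (228 of 720, 28.3% to 35.2%). They were 20.7% in wild type 1 (96 of 464, 17.1% to 24.7%) and 25.6% in wild type 2 (181 of 708, 22.4% to 28.9%). Means were 32.6% (SD 1.37) in mutants and 23.1% (SD 3.45) in wild types, a difference of 9.51 percentage points (n = 2 each, exact two-sided permutation p = 0.333, the smallest possible). At 5000 UMIs per barcode the values were 35.9% and 32.1% in mutants 1 and 2 and 26.3% and 26.2% in wild types 1 and 2, a difference of 7.75 (p = 0.333 in the same exact test). Unlike the share of all barcodes, this ratio kept both mutants above both wild types after thinning. It was looked at after the data were seen, and intervals cover counting error only.

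**Figure D3:**
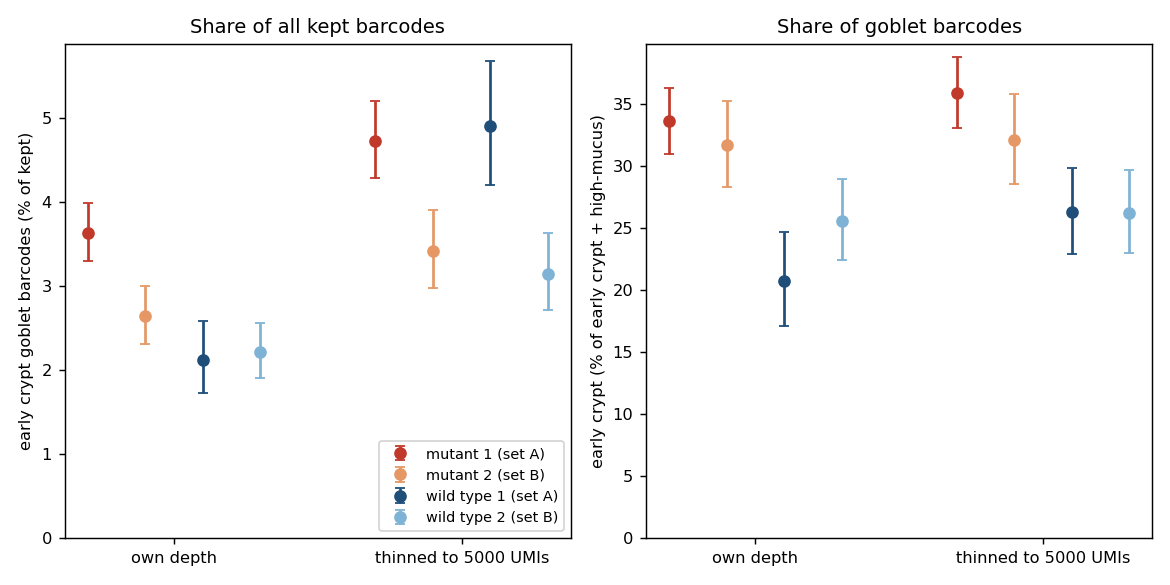
Early crypt goblet barcodes in percent of all kept barcodes (left) and in percent of early crypt plus high-mucus barcodes (right), per library at its own depth and after thinning to 5000 UMIs. Points are libraries and bars are exact 95% binomial intervals. On the left the groups overlap after thinning (3.42% and 4.72% in mutants, 3.14% and 4.90% in wild types), whereas on the right both mutants stay above both wild types.

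The second question is whether the same cells express other genes in the mutant. UMIs were summed over members per library and 11368 genes passed the filter on low counts. edgeR's quasi-likelihood test without a term for the set called 0 of them at an adjusted p under 0.05 (0%), while 298 had an unadjusted p under 0.05 and the lowest adjusted p was 0.159. DESeq2 called 25, 2 higher and 23 lower in mutants. With the set as a replicate block edgeR called 16 genes (0.141% of those tested), 4 higher (0.0352%) and 12 lower (0.106%) in mutants. That fit leaves 1 residual degree of freedom among the libraries, and its estimate of the spread leans on all genes together. Of the 16, the alpha-defensins Defa34 and Defa5, both higher in mutants, were used by the rule, so their values are a description with no test.

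In TMM-scaled CPM, the scale of the fit, 1482 genes (13%) had both mutants above both wild types and 1591 (14.0%) had both below. In plain CPM those were 771 (6.78%) and 2589 (22.8%), so counts of genes whose groups do not overlap shift with the scaling and are given on the scale of the fit unless said. Values in the comparison of genotypes below are TMM-scaled CPM, and ratios are log2 of mutant over wild type from the fit without the set term. In the 7 lists of goblet genes, with the genes of the rule left out, 128 genes were tested and 0 passed an adjusted p under 0.05 by edgeR with or without the set term.

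Among regulators, the master factor Atoh1 had 220 and 181 in mutants 1 and 2, against 137 and 178 in wild types 1 and 2. Set A gave a log2 ratio of 0.68 and set B 0.03, the groups overlapped in plain CPM, and the ratio of 0.35 over both sets (SE 0.21, n = 2 each) did not pass edgeR's test (adjusted p = 1.00). Spdef had 77.3 and 74.4 in mutants against 79.0 and 68.7 in wild types (log2 0.04, SE 0.17), and Foxa3 had 91.6 and 106 against 97.4 and 107 (log2 -0.05, SE 0.18). Creb3l4, a secretory-pathway transcription factor, had 79.7 and 85.0 against 77.8 and 51.4 (log2 0.35, SE 0.22). Of 14 regulators tested, 6 had both mutants higher and 0 had both lower, against 13% and 14.0% of all genes. In plain CPM these regulators numbered 2 and 1, against 6.78% and 22.8%. Their median log2 ratio was 0.13, against 0.00 over all genes, and -0.05 among members with a mucus sum of at least 10.

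The secreted products gave similar values in both genotypes. Agr2 had 8512 and 10459 in mutants against 8007 and 9228 in wild types (log2 0.14, SE 0.19). Guca2a had 1690 and 2259 against 1905 and 2039, with a log2 ratio of 0.00 (SE 0.21) (set A -0.17, set B 0.15). Neither differed beyond the spread between libraries. Spink4 had 6432 and 8149 against 5318 and 7189 (log2 0.22, SE 0.22), and Tff3 had 6916 and 6779 against 4566 and 7106, a log2 ratio of 0.60 for set A and -0.07 for set B. Ccl6, a chemokine, had 1247 and 1542 in mutants against 1080 and 670 in wild types (log2 0.67, SE 0.27, edgeR adjusted p = 1.00), and most of that gap lay in set B. For Agr2 the log2 ratio among members with a mucus sum of at least 10 was -0.13 and for Guca2a it was -0.26, and both also turned in direction under other settings.

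Folding genes went in both directions. Ostc, a subunit of the oligosaccharyl transferase, had 642 and 653 in mutants against 511 and 513 in wild types (log2 0.34, SE 0.19), and Manf, a chaperone induced by misfolded protein, had 845 and 941 against 648 and 791 (log2 0.31, SE 0.21). Ern1, the sensor that splices Xbp1, had 53.8 and 60.4 against 72.1 and 69.0 (log2 -0.31, SE 0.17). Hspa5, the main chaperone of the reticulum, had 534 and 864 against 701 and 820, and its groups overlapped. Of 34 folding genes 8 had both mutants higher and 2 had both lower, 23.5% and 5.88% against 13% and 14.0% of all genes. In plain CPM these were 3 and 3, against 6.78% and 22.8% of all genes. The median log2 ratio of the 34 was 0.14, and -0.04 among members with a mucus sum of at least 10. Bcas1 showed the clearest separation among the granule genes, with 95.4 and 93.0 in mutants against 71.5 and 56.2 in wild types (log2 0.56, SE 0.19, unadjusted p = 0.018, edgeR adjusted p = 1.00). Cplx2, a complexin of neuroendocrine exocytosis, had 8, 19, 65 and 21 UMIs in mutant 1, mutant 2, wild type 1 and wild type 2, all low counts.

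The glycosylation, ion transport and protease lists were counted in the same way, against 13% higher and 14.0% lower over all genes. In mucin glycosylation 5 of 25 genes had both mutants higher and 1 both lower. In plain CPM these were 1 and 2, against 6.78% and 22.8% of all genes. Uap1, which makes the sugar donor UDP-N-acetylglucosamine, had 225 and 186 in mutants against 171 and 150 in wild types (log2 0.36, SE 0.19). Gcnt3, a branching enzyme of mucin glycans, had 123 and 105 against 101 and 88.3 (log2 0.28, SE 0.18). Cftr had 137 and 110 in mutants against 166 and 180 in wild types (log2 -0.49, SE 0.19, edgeR adjusted p = 1.00), -0.28 within set A and -0.70 within set B. Among 14 ion transport and guanylin genes 2 had both mutants higher and 1 both lower, and among 11 proteases and inhibitors these were 2 and 0.

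Among stem cell and S phase genes 14.3% and 19.0% had both mutants lower, against 14.0% of all genes. In each of these lists 0 had both mutants higher, against 13% of all genes. Cd44, a Wnt-target adhesion receptor of crypt cells, had 26.9 and 27.1 in mutants against 38.1 and 45.1 in wild types (log2 -0.62, SE 0.20, edgeR adjusted p = 1.00). Of 21 stem cell genes 0 had both mutants higher and 3 had both lower (0 and 7 in plain CPM), with a median log2 ratio of -0.15. In S phase 0 of 21 were higher and 4 lower in both mutants (0 and 7 in plain CPM), against 14.0% lower over all genes and 22.8% in plain CPM. Among the 4 was Mcm6, a subunit of the replicative helicase, with 48.9 and 51.2 against 70.3 and 72.4 (log2 -0.51, SE 0.17). In G2 and M phase 6 of 28 were higher and 2 lower, against 13% and 14.0% over all genes. In plain CPM these were 5 and 2, against 6.78% and 22.8%. Ube2c, which drives mitotic exit, had 423 and 333 in mutants against 278 and 257 in wild types (log2 0.50, SE 0.21). Of 14 Notch pathway genes 0 were higher and 2 lower in both mutants (0 and 3 in plain CPM).

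Because the mutation lies in a mitochondrial tRNA, stress and respiratory genes were looked at in the same cells. Of 30 integrated stress response genes 0 were called, 7 had both mutants higher and 3 had both lower (median log2 0.09). In plain CPM these were 5 and 3. Over all genes tested, 0% were called without and 0.141% with the set term. For the counts in this paragraph, 13% of all genes had both mutants higher and 14.0% both lower, or 6.78% and 22.8% in plain CPM. Cebpb, a stress and inflammation factor, had 70.3 and 45.2 in mutants against 27.5 and 29.0 in wild types (log2 1.04, SE 0.25, unadjusted p = 0.00398, edgeR adjusted p = 0.963). Of the classical targets, Asns (asparagine synthetase) had 44.5 and 45.9 in mutants against 45.6 and 34.1 in wild types, and Atf5 had 12.6 and 8.73 against 11.9 and 2.27, and both overlapped. The hormone gene Fgf21 had no UMI in either mutant and did not pass the filter. Sesn2 had 10 and 8 UMIs in mutants and 20 and 11 in wild types. Of 75 nuclear respiratory chain subunits 15 had both mutants higher and 2 both lower, 7 and 4 in plain CPM, with a median log2 ratio of 0.10, and Ndufa4 had 1825 and 1747 against 1205 and 1501 (log2 0.40, SE 0.20). Of 78 mitochondrial ribosomal proteins these were 15 and 3, but 4 and 6 in plain CPM. The 13 mitochondrial mRNAs enter the rule through the limit on mitochondrial UMIs and are levels only. They summed to 48901 and 40841 CPM in mutants 1 and 2 and to 37322 and 46229 CPM in wild types 1 and 2, so the groups overlapped. Among the 13, 2 had both mutants higher and 0 both lower, with the same counts in plain CPM. Of those 2, mt-Cytb had 5300, 5464, 3562 and 4415 CPM in mutant 1, mutant 2, wild type 1 and wild type 2.

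The interferon-stimulated genes had the largest share of separated members among the 21 lists on the scale of the fit, though not in plain CPM, where heat shock genes had a larger one. Of 21 interferon-stimulated genes tested, 14 had both mutants above both wild types and 0 had both below, against 13% and 14.0% of all genes, and in plain CPM 9 were above and 0 below, against 6.78% and 22.8%. Their median log2 ratio was 0.39, and 0.37 among members with a mucus sum of at least 10, 0.29 with at least 5 of 7 genes and 0.34 without scrublet calls. Oasl2, an antiviral protein of the oligoadenylate synthetase family, had 13.7 and 16.1 in mutants against 7.81 and 7.097 in wild types (log2 0.99, SE 0.28, unadjusted p = 0.00898, edgeR adjusted p = 1.00). Iigp1, an interferon-inducible GTPase, had 22 and 24 UMIs in mutants against 2 and 2 in wild types (log2 2.86, SE 0.64, edgeR adjusted p = 0.798). None of the 21 passed edgeR's test over all genes with or without the set term, and 3 had an unadjusted p under 0.05. T cell markers moved with them: 6 genes summed to 13.1 and 12.7 CPM in mutants and 1.31 and 0.285 CPM in wild types, against 22.9 to 82.6 CPM in remaining barcodes, and their part in the interferon values was not tested. Summed over all 33 genes of the list, high-mucus barcodes had 1182 and 1576 CPM in mutants and 1977 and 1070 CPM in wild types, so the groups overlapped there, while members had 496 and 584 CPM in mutants against 461 and 415 CPM in wild types. The test of the difference between these classes, given below, called 0 of 30 interferon-stimulated genes, against 0.105% of all genes.

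The remaining lists held smaller shares of separated genes on the scale of the fit. Among heat shock genes 0 of 11 were higher and 4 lower (36.4%) in both mutants, against 13% and 14.0% of all genes. In plain CPM these were 0 and 6 of 11, against 6.78% and 22.8%. Hspa8 had 645 and 727 in mutants against 1032 and 898 in wild types (log2 -0.49, SE 0.20), and Dnaja1 had 159 and 196 against 228 and 291 (log2 -0.54, SE 0.21). The median log2 ratio of the 11 heat shock genes, -0.34, was -0.16 among members with a mucus sum of at least 10. Reg3b, an antimicrobial lectin, had 2171 and 3368 in mutants against 2022 and 1361 in wild types (log2 0.71, SE 0.29, 0.10 for set A, 1.31 for set B). Insig1, a sensor of the sterol pathway, had 74.0 and 38.4 against 39.0 and 22.7, and its groups overlapped. Of 23 sterol genes 6 had both mutants higher and 0 both lower, against 13% and 14.0% of all genes. In plain CPM these were 2 and 0, against 6.78% and 22.8%. Antimicrobial genes gave 2 and 0 of 12, MHC genes 1 and 0 of 20, and immediate early genes 2 and 0 of 17. In plain CPM the antimicrobial, MHC and immediate early lists each gave 0 and 0.

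**Figure D4:**
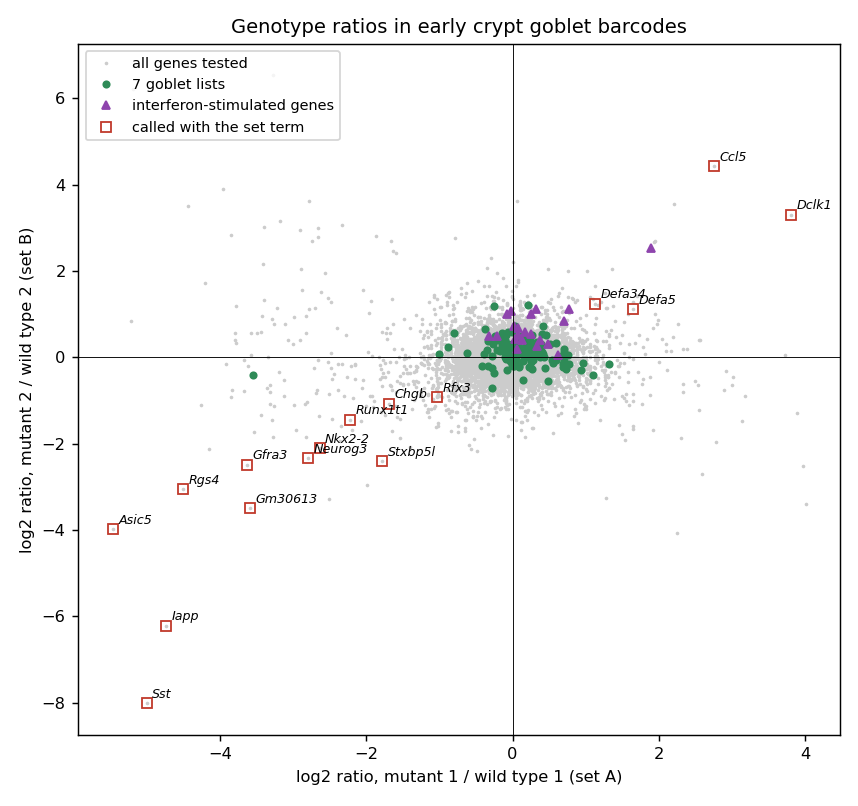
Log2 ratio of mutant to wild type within set A (horizontal axis) and within set B (vertical axis) for 11368 genes in early crypt goblet barcodes, with the genes of 7 goblet lists (their rule genes included), the interferon-stimulated genes and the 16 genes called with the set term marked. The 16 include Defa34 and Defa5, which the rule used. Most goblet genes lie near the origin and the interferon-stimulated genes lie mostly in the upper right quadrant, whereas called genes such as Sst and Iapp lie far to the lower left.

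The 12 genes called lower in mutants with the set term were Asic5, Chgb, Gfra3, Gm30613, Iapp, Neurog3, Nkx2-2, Rfx3, Rgs4, Runx1t1, Sst and Stxbp5l, several of them genes of enteroendocrine cells. Sst, the hormone somatostatin, had 236 and 11 UMIs in mutants 1 and 2, against 3987 and 2722 in wild types 1 and 2 (log2 -5.58, SE 0.99, edgeR adjusted p = 0.432 without and 0.022 with the set term). A single barcode held 227 of the 236 UMIs in mutant 1 and 3978 of the 3987 in wild type 1, and 2 barcodes held 1371 and 1334 of the 2722 in wild type 2. Iapp, the hormone amylin, had 19 and 1 UMIs in mutants against 303 and 180 in wild types, with 292 of the 303 in 1 barcode. The Sst difference was therefore carried by a handful of members.

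Neurog3, the factor that starts the enteroendocrine lineage, had 21 and 40 UMIs in mutants and 85 and 170 in wild types (log2 -2.62, SE 0.48, edgeR adjusted p = 0.446 without and 0.011 with the set term). They lay in 4 and 5 members of the mutants and in 3 and 14 members of the wild types. Chgb, a granin of endocrine granules, had 60.0 and 67.3 TMM-scaled CPM in mutants against 195 and 142 in wild types (log2 -1.41, SE 0.21, edgeR adjusted p = 0.309 without and 0.0323 with the set term). The 3 barcodes with most Chgb held 75.8% and 85.0% of its UMIs in mutants and 51.1% and 81.2% in wild types. Rfx3, a ciliogenic and endocrine factor, was spread more widely, over 166 and 110 members of mutants 1 and 2 and over 58 and 109 members of wild types 1 and 2. It had 40.4 and 49.2 in mutants against 83.1 and 93.4 in wild types (log2 -0.98, SE 0.19, edgeR adjusted p = 0.506 without and 0.0493 with the set term). Members with a mucus sum under 10 held 7.66% and 22.0% of its UMIs in mutants and 65.0% and 26.4% in wild types. Runx1t1, a transcriptional corepressor, had 10.3 and 11.7 against 49.7 and 32.6 (log2 -1.90, SE 0.27, edgeR adjusted p = 0.24 without and 0.0323 with the set term).

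Together the 12 genes had 1021 and 657 UMIs in mutants 1 and 2 and 5825 and 4295 in wild types 1 and 2. Members with a mucus sum under 10 held 3.43% and 56.8% of these in mutants and 93.6% and 51.8% in wild types, and members with only 4 or 5 of the 7 genes held 31.7% and 70.8% in mutants and 98.3% and 95.6% in wild types. When members had to have a mucus sum of at least 10, edgeR called 0 genes with and without the set term (531 and 239 with an unadjusted p under 0.05). Neurog3 still had a log2 ratio of -2.01 there with the set term (edgeR adjusted p = 0.145) and Ccl5 4.96 (adjusted p = 0.096), against -2.63 and 4.53 over all members, while Chgb had -0.87, Rfx3 -0.52 and Sst -2.14. With at least 5 of 7 genes edgeR called 0 with and without the set term (373 and 165 with an unadjusted p under 0.05). The log2 ratio with the set term was then -0.57 for Neurog3, -0.34 for Chgb and 5.80 for Ccl5, and for Sst it turned to 2.38, higher in mutants. Enteroendocrine markers over 8 genes summed to 493 and 1704 CPM in mutants and 4943 and 469 CPM in wild types, so that whole list did not follow genotype, and its 8 genes all had UMIs in every library. Sct, the hormone secretin and a gene of that list, had 226 and 1014 CPM in mutants and 1542 and 154 CPM in wild types. It made up most of the sum in mutant 2 only.

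The genes called higher were few, and among them Dclk1 and Ccl5 were concentrated too. Dclk1, a tuft cell kinase, had 37 and 152 UMIs in mutants 1 and 2 against 0 and 11 in wild types 1 and 2 (edgeR adjusted p = 1.00 without and 0.0323 with the set term), with 25 and 116 of them in 1 barcode each. Ccl5, a chemokine of lymphocytes, had 42 and 68 UMIs against 2 and 1 (edgeR adjusted p = 0.339 without and 0.0395 with the set term), with 37 and 61 in 1 barcode each. The other 2, Defa34 and Defa5, are alpha-defensins that the rule used, and Defa34 had 114 and 115 plain CPM in mutants against 55.7 and 50.7 in wild types. Its UMIs were spread over 115 and 97 members of mutants 1 and 2, with 11.5% and 23.7% in the top barcode. By size alone, Mptx2, a Paneth cell pentraxin, had 100 and 88.2 TMM-scaled CPM in mutants against 20.6 and 51.4 in wild types (log2 1.38, SE 0.37, edgeR adjusted p = 1.00). In contrast, no barcode held over 4.204% of the Agr2 UMIs of its library.

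**Figure D5:**
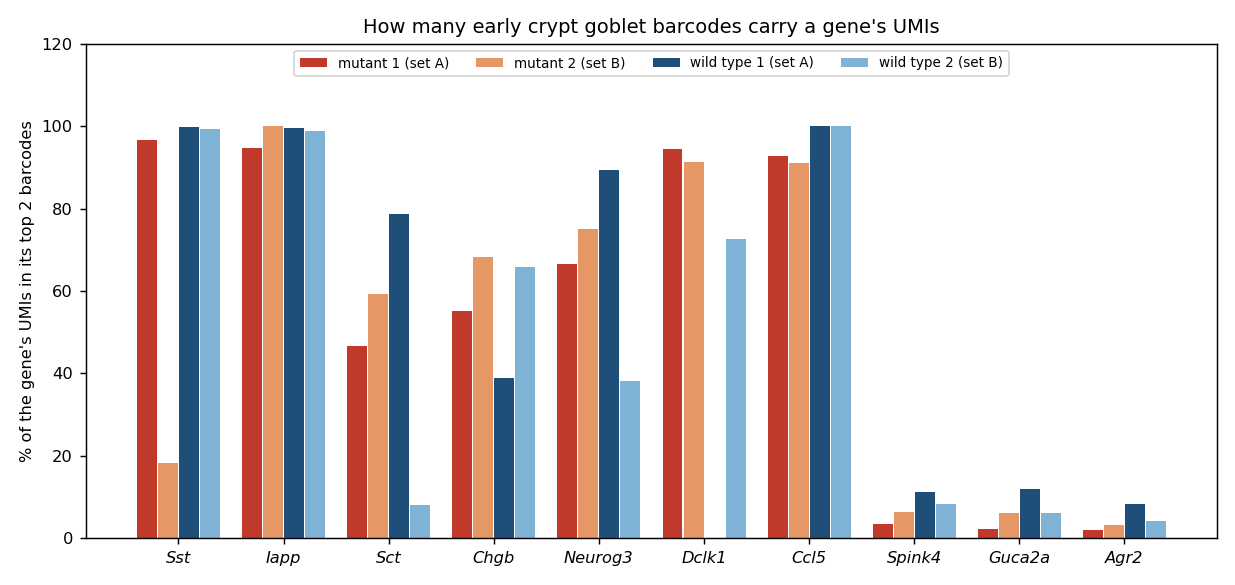
Percent of the UMIs of 10 genes in early crypt goblet barcodes that lie in the 2 barcodes with most of them, per library. For Sst the 2 top barcodes hold 96.6% in mutant 1, 18.2% in mutant 2 (of 11 UMIs), 99.8% in wild type 1 and 99.4% in wild type 2, whereas for Agr2 they hold 1.96% to 8.30%, and Dclk1 has no bar in wild type 1, where it had 0 UMIs.

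Last, the genotype ratio in members was set against that in high-mucus barcodes, in 1 model with a library block. Of 12423 genes, edgeR's test of the difference called 13 (0.105%), 12 of them lower in members than in high-mucus barcodes and Dclk1 higher. The 12 were Cacna2d1, Cadps, Chgb, Gfra3, Isl1, Kcnb2, Kcnj3, Rfx6, Rgs7, Runx1t1, Scgn and Sphkap, none of them in the 21 lists. For Chgb the difference was -4.03 on the log2 scale (SE 0.35, edgeR adjusted p = 0.0042). In plain CPM members had 58.7 and 64.3 in mutants 1 and 2 against 205 and 143 in wild types 1 and 2, and high-mucus barcodes had 23.8 and 48.9 in mutants against 4.69 and 5.68 in wild types. The classes thus went in opposite directions, and both entered the difference. No goblet marker passed. For Agr2 it was 0.20 (SE 0.21, edgeR adjusted p = 0.842), for Guca2a 0.32 (SE 0.22, adjusted p = 0.764) and for Tff3 0.76 (SE 0.28, adjusted p = 0.647). Bcas1 had 0.92 (SE 0.18, edgeR adjusted p = 0.271) and Cd44 -1.18 (SE 0.23, adjusted p = 0.271). When all other kept barcodes stood in for the high-mucus class, 0 genes were called.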

How the data were processed

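UMI counts per gene and barcode, the unit of all 4 matrices, were deposited by the authors without normalization. Per the submitters' processing notes, Cell Ranger made them on build mm10, in version 7.0.0 for set A and 7.1.0 for set B. Options for introns and cell calling are not known here. The members, gene lists and named genes were chosen with earlier results of these data known.

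Counts were summed over members per library and tested by quasi-likelihood in edgeR 4.0.16 under R 4.3.3, with TMM scaling, filterByExpr and Benjamini-Hochberg adjustment over all genes tested, and with DESeq2 1.42.0 as an alternative. Doublets were scored per library with scrublet in scanpy 1.11.5, at a threshold that calls 0.8% of barcodes per 1000, and left in. Intervals are exact Clopper-Pearson 95% binomial intervals from scipy 1.17.1, and cover counting error only. Fits were tested on simulated data. Genes named are those of the rule, the given markers, genes called in either fit with a mean of at least 20 CPM, and up to 4 genes of lowest p per list; a direction with under 5 was filled with genes of at least 50 CPM as values only. The remaining called genes, and the genes described by class and mucus range, were named after their values were seen. The replicate numbers are not in the labels, so the set stood in as replicate block. Gene coordinates came from GENCODE vM21 and promoter sequence from RefSeq, GRCm38.p6.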

Additional observations from a re-analysis of the deposited data

Results flagged for a closer look

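The ratio of mutant to wild type differed between early crypt and high-mucus goblet barcodes for 13 genes in edgeR's test of the difference (adjusted p under 0.05). The log2 difference, early crypt minus high-mucus, was -3.53 for Cacna2d1, -4.15 for Cadps, -4.03 for Chgb, -5.08 for Gfra3, -6.31 for Isl1 and -2.77 for Kcnb2. It was -6.21 for Kcnj3, -3.90 for Rfx6, -2.43 for Rgs7, -2.23 for Runx1t1, -4.35 for Scgn and -6.92 for Sphkap. For Dclk1 it was 4.62. The 12 lower genes had 1046 and 1162 UMIs in members of mutants 1 and 2 and 3564 and 1694 in members of wild types 1 and 2. Members with 4 or 5 of the 7 genes held 54.6% and 87.3% of these in mutants and 96.8% and 94.6% in wild types. The part of those members in the differences was not tested. The high-mucus class entered the differences as well. For Chgb members had a log2 ratio of -1.69 within set A and -1.06 within set B, and high-mucus barcodes had 2.17 and 3.03. For Isl1 it was -3.87 and -0.91 among members, and 2.39 and 2.87 among high-mucus barcodes. For Runx1t1 it was -2.23 and -1.43 among members, and -0.20 and 0.94 among high-mucus barcodes. The sets differed among members for Cadps, Kcnj3 and Sphkap. In set A these had 32, 12 and 19 UMIs in mutant 1 against 203, 167 and 162 in wild type 1. In set B they had 63, 35 and 48 UMIs in mutant 2 against 34, 1 and 4 in wild type 2. The other genes of the 12 had fewer UMIs in mutant 2 than in wild type 2.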

How the results depend on the processing

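The difference in the share of kept barcodes, 0.967 percentage points, was -0.452 with at least 3 of 7 genes, 0.0478 after thinning to 5000 UMIs and 0.473 to 1.46 with each library left out. It stayed between 0.506 and 1.55 under the other limits tried. The share of goblet barcodes differed by 7.07 to 11.9 with each library left out. The count of genes called, 0, was 16 with the set as replicate block, 163 with no filter on low counts, 25 by DESeq2, 16 by DESeq2 with the block, 2 without scrublet calls, 3 with a mucus sum under 50 and 7 to 149 with each library left out (149 without wild type 2, 13 without wild type 1, 10 without mutant 2, 7 without mutant 1). An alternative chosen after the data were seen, without scrublet calls and with the block, gave 61, and another, with at least 5 of 7 genes and the block, gave 0. It was 0 with RLE size factors, without defensin and mitochondrial genes, under 15% mitochondrial UMIs, with at least 3 or at least 5 of 7 genes, under a mucus sum of 200, after thinning, and, in alternatives chosen after the data were seen, with a mucus sum of at least 10 and with under 5% defensin. The labels give no replicate numbers, so the block is the set and not a pairing of animals. The count of 13 genes that differ between classes was 0 against all other kept barcodes, 167 with no filter, 6 without scrublet calls, 11 with RLE size factors and 12 to 899 with each library left out (899 without wild type 2, 60 without wild type 1, 22 without mutant 2). The cause of these shifts was not tested.

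Over 39 named genes, 732 of 834 alternative values kept direction and side of the threshold, 62 passed it and 40 turned in direction, in 11 genes. These were log2 ratios of Agr2 at -0.11 and -0.12 (5 of 7 genes, without and with the block), -0.075 (thinned), -0.13 and -0.14 (mucus sum of at least 10, without and with the block) and -0.00996 to 0.29 with each library left out. Guca2a gave -0.0125 with the block in edgeR and -0.0116 in DESeq2, -0.0026 (under 15% mitochondrial), -0.23 and -0.24 (5 of 7), -0.13 (mucus under 200), -0.11 (thinned), -0.26 and -0.27 (mucus of at least 10), and -0.21 to 0.20 with each library left out. Spdef gave -0.26 and -0.24 (5 of 7), -0.074 (mucus under 200), -0.13 (thinned), -0.28 and -0.26 (mucus of at least 10) and -0.058 to 0.15 with each library left out. Spink4 gave -0.025 and -0.040 (5 of 7), -0.052 and -0.068 (mucus of at least 10), Foxa3 0.37 (3 of 7), 0.086 (mucus under 50) and -0.15 to 0.058 with each library left out, and Hspa5 0.043 (3 of 7) and -0.50 to 0.19 with each library left out. Single values were Cftr 0.30 (thinned), Gcnt3 -0.024 (mucus of at least 10), Reg3b -0.067 (3 of 7), and Sst 2.96 and 2.38 (5 of 7), and Tff3 ran from -0.048 to 0.58 with each library left out. Of 104 values for the 13 genes that differ between classes, 71 kept their call, 33 lost it and 0 turned. With 96 members in wild type 1 and 2 libraries per genotype, small ratios cannot be resolved.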
